A study of Mus musculus with 7 samples.

Results

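The 75 genes described here encode proteins that start and extend protein synthesis and the enzymes that charge transfer RNAs. They were chosen by symbol alone among 14860 genes with a transcript cluster of their own on the array. The rule took every symbol from Eif1 to Eif6 and from Eef1 to Eef2, every cytosolic or mitochondrial aminoacyl-tRNA synthetase, and no measured value. Eif2ak2, Eif2s3x and Eif2s3y were left out by the rule, and Eef2, which has no suffix, was counted in. The members fell into 45 factors and 30 synthetases, each read by 1 cluster. In 9 further clusters the annotation listed a family gene together with others, among them Eif4ebp1, Eif5a, Eif6, Eif4a2 and Aars, and these were not used. In all, 26 genes of the family, including Eif2s1, Eif4g1, Eif4a1 and Eprs, had no cluster of their own and were not analysed here.

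RNA came from LSK cells, a bone marrow fraction without mature lineage markers that carries Sca-1 and c-Kit and is rich in blood stem and progenitor cells. The mice were untreated adults of strain FVB, 3 of them labelled TRAF6 transgenic (03, 04 and 05) and 4 of them wild-type littermates (21, 22, 23 and 24), with 1 exon array per mouse. TRAF6 is a ubiquitin ligase that passes Toll-like and interleukin-1 receptor signals on, and the series asks what its excess does in these cells. The promoter that drives the transgene was not given in the sources used here. Values are log2 levels made by the authors with RMA, and a difference is always labelled transgenic minus wild type.

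Facts of the arrays touch all results. Traf6 measured 7.91 ± 0.34 (SD, n = 3) on the arrays labelled transgenic and 8.15 ± 0.16 (SD, n = 4) on the wild-type arrays. The label was thus not borne out by the level of this cluster. Whether the cluster reads the transgene was not tested, so its level does not show whether TRAF6 was in excess. Eif2s3y, the Y-linked copy of the eIF2 gamma subunit, lay at 2.91 to 3.05 against 8.05 to 8.64, and its X-linked partner Eif2s3x at 9.91 to 10.32 against 9.65 to 9.80. Genotype and the Y-linked signal divide the arrays the same way and cannot be told apart. By their symbols no member lies on the X chromosome, but the cluster assigned to Eif4b has X-linked genes as its neighbours on the array. Kit, the gene of c-Kit, ran from 10.15 to 10.67 over all arrays and Cd34 from 10.77 to 11.19. Markers of other cells differed in both directions. Of the 5 measured B cell markers, Ebf1, Cd79a and Pax5 were lower (-1.43, -0.67 and -0.66) and Cd79b and Ms4a1 higher (0.41 and 0.20). Ms4a1 had a low signal, at 3.13 against 2.92. Of the 8 macrophage and dendritic markers, H2-Aa, Cd74 and H2-Ab1, of class II antigen presentation, were lower by the widest margin (-0.92, -1.08 and -0.80), followed by C1qa (-0.29), while Siglech, Adgre1, Vcam1 and Cd68 lay between -0.05 and 0.11. The summed level of the B cell markers was 27.96 to 28.80 against 29.54 to 31.35, and that of the macrophage and dendritic markers 48.99 to 50.29 against 51.97 to 53.28. The summed levels overlapped for the 8 T and NK cell markers (42.95 to 44.17 against 43.02 to 45.56), the 10 granulocyte and monocyte markers (58.39 to 59.87 against 57.88 to 60.01) and the 5 erythroid markers (32.11 to 33.46 against 31.28 to 32.41). Just 3 T and NK cell markers and 4 granulocyte and monocyte markers lay above the 40th percentile of mean signal. So did 4 of the B cell, 4 of the macrophage and dendritic and 4 of the erythroid markers. Of the 9 measured LSK markers 7 were lower, led by Flt3 (-0.67) and Hlf (-0.57), and 2 higher, Cd48 (0.55) and Slamf1 (0.26). Their part in the results was not tested. In RNA from pooled cells, fewer cells of a type and less RNA per cell cannot be told apart.

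In translation, eIF2 brings the initiator transfer RNA to the small ribosomal subunit, and eIF2B reloads eIF2 with GTP. The scaffold on the small subunit is eIF3, while eIF4 proteins bind the cap and unwind the leader. Elongation factors then deliver charged transfer RNAs and move the ribosome along. Each synthetase joins an amino acid to its transfer RNA, and many cytosolic synthetases sit in a common complex held by scaffold proteins. Growing cells raise the output of this machinery, and blood stem cells are known for a low rate of protein synthesis compared with their progeny.

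The members lay higher on the arrays labelled transgenic by a small margin, and the synthetases carried most of this. Of 75 members, 57 had a positive difference and 18 a negative one, with a median of 0.16, where 49.7% of all 23332 clusters had a positive difference and their median was -0.0018. No member passed an adjusted p of 0.05 in limma, the lowest being 0.365, and of all clusters 0 were higher and 5 (0.0214%) lower at that threshold. At an unadjusted p under 0.05, 18 members (24.0%) were higher, against 5.22% of all clusters, and 0 were lower, against 5.05%. On all 3 arrays labelled transgenic 16 members exceeded all 4 wild-type arrays, which 5.17% of all clusters did, and 0 members lay below all wild-type arrays, against 5.18%.

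Most members are well expressed, which bears on the background. Of the 75, 73 lay above the 40th percentile of mean signal. Among the 13999 clusters above that level the share higher at an unadjusted p under 0.05 was 6.77% and the share lower 6.08%, with a median difference of 0.0001. The groups did not overlap in 6.46% of these clusters with the arrays labelled transgenic higher and in 6.31% with them lower. The exception with the lowest signal was the cluster assigned to Eif4b, a helper of the eIF4A helicase, at 3.49 and 3.38 in the groups. Its 6 nearest annotated clusters in the order of the array all belong to genes of the X chromosome, while Eif4b lies on chromosome 15, so its values are not read as those of Eif4b. Without this cluster, a count added after the data were seen, 56 of 74 members had a positive difference, with a median of 0.16.

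**Figure D1:**
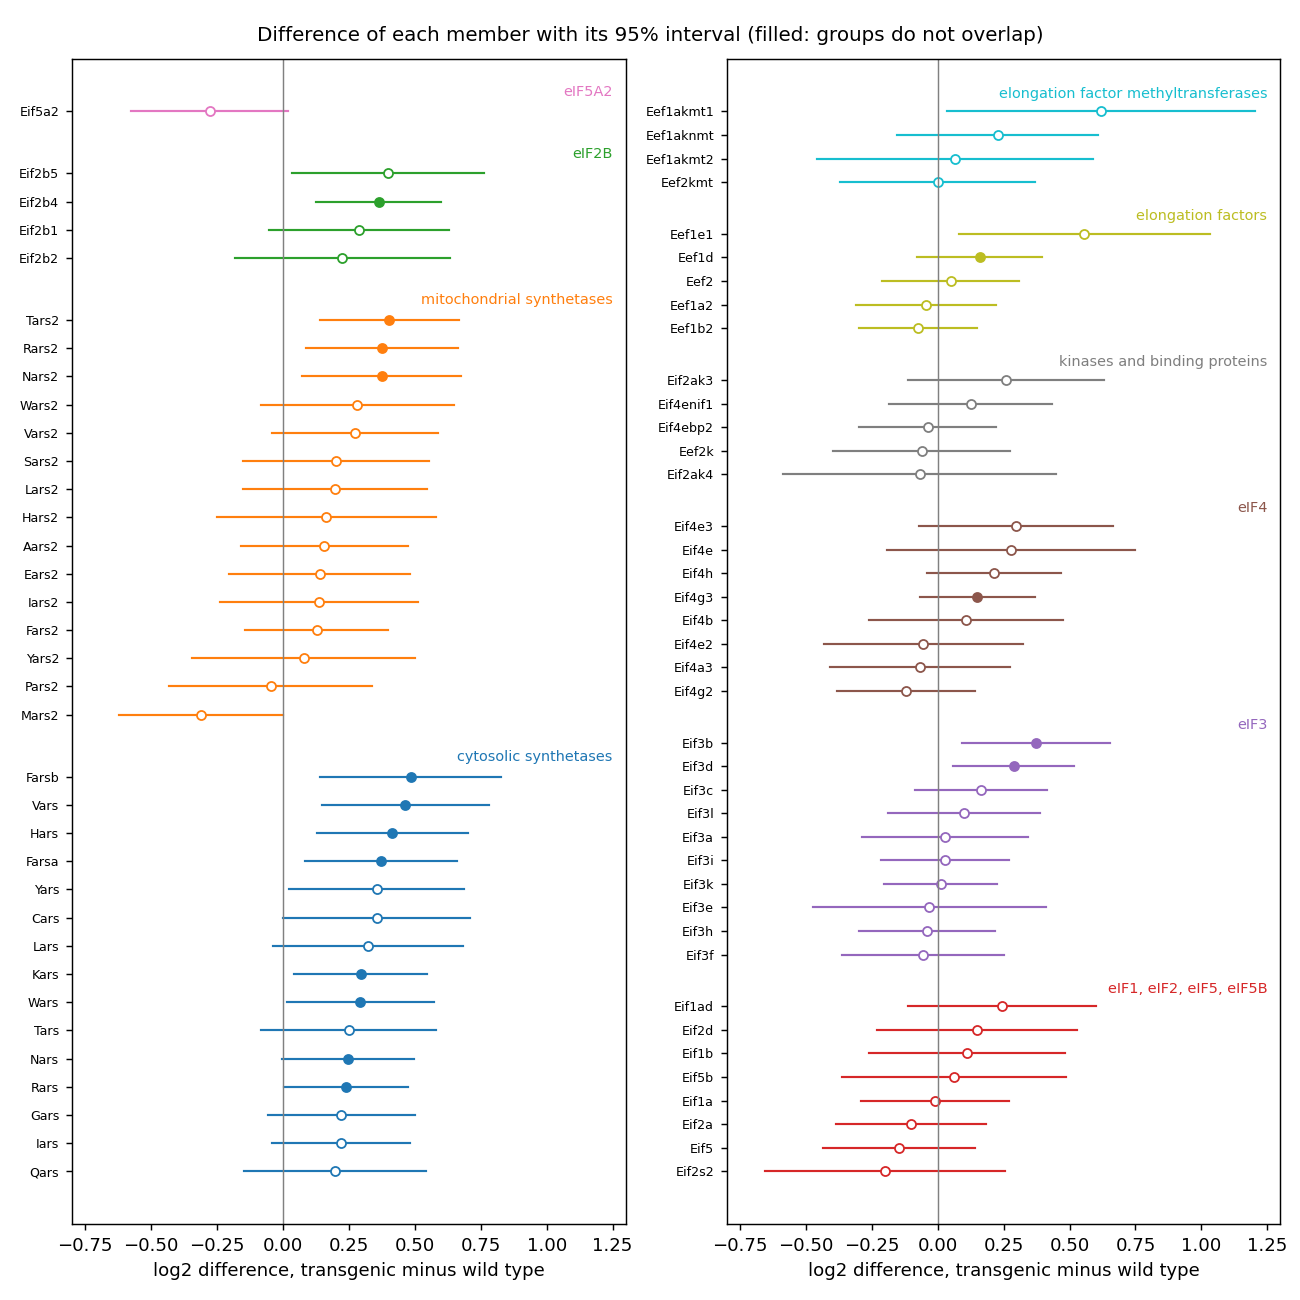
The log2 difference of each of the 75 members (point) with its 95% interval (line), by role, and filled points where the 3 arrays labelled transgenic and the 4 wild-type arrays do not overlap. All 15 cytosolic synthetases and all 4 eIF2B subunits lie to the right of 0, while the eIF3 subunits other than Eif3b and Eif3d gather near it. Eef1e1, a synthetase scaffold, is drawn by its symbol among the elongation factors.

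The 3 arrays labelled transgenic did not contribute alike. Averaged over the 75 members, arrays 03 and 04 stood at 8.65 and 8.65 and array 05 at 8.33, against 8.34 to 8.46 on the wild-type arrays. Array 05 was the lowest of the 3 in 70 members and the lowest of all 7 in 28. It also had the lowest mean over all clusters above the 40th percentile (7.35, against 7.49 to 7.64 on the wild-type arrays) and the smallest array weight (0.284). Over those clusters array 03 had the highest mean of all 7 arrays (7.65), and array 04 lay within the wild-type range (7.60). These levels were not rescaled in the reported fit. Without array 05, 39 members were higher at an unadjusted p under 0.05 (11.7% of all clusters in that fit) and the median was 0.30. Without array 04 the count was 5 (2.99% of all clusters) and the median 0.11, and without array 03 it was 9 (3.46%) with 0.14. Leaving out wild type 22 gave 10 (3.99%) and leaving out wild type 23 gave 7 (3.21%). Both 03 and 04 exceeded all wild-type arrays in 48 members (18.7% of all clusters), and 05 did so in 17 (18.9% of all clusters). Among clusters above the 40th percentile those shares were 26.4% and 13.6%.

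The cytosolic synthetases were higher throughout. All 15 measured genes had a positive difference, from 0.20 to 0.48 with a median of 0.29, and 9 had an unadjusted p under 0.05, against 6.77% of clusters above the 40th percentile. In 8 the groups did not overlap, against 6.46% of those clusters. Arrays 03 and 04 both exceeded every wild-type array in 15 of 15, which 26.4% of clusters above the 40th percentile did, and array 05 in 8 of 15, against 13.6%. Averaged over the 15 genes, arrays 03, 04 and 05 stood at 9.08, 9.09 and 8.78 against wild-type values of 8.58 to 8.74, so here the array means did not overlap.

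Farsb, the beta subunit of the phenylalanine enzyme, had the largest difference among the synthetases. It measured 8.83, 8.73 and 8.38 on arrays 03, 04 and 05 and 8.02, 8.34, 8.05 and 8.24 on wild type 21, 22, 23 and 24. All 3 arrays labelled transgenic lay above the 4 wild-type arrays, with array 05 close to wild type 22. The means were 8.65 ± 0.23 (SD, n = 3) and 8.16 ± 0.155 (SD, n = 4), a 1.40-fold difference of 0.48 (SE 0.15, limma adjusted p = 0.384). Farsa, the alpha subunit of the same enzyme, measured 9.03, 9.19 and 8.88 against 8.60, 8.81, 8.52 and 8.72, again without overlap. Its difference was 0.37 (SE 0.12, adjusted p = 0.407). Both subunits of this tetramer thus differed in the same direction and by a like amount.

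Vars, which charges valine transfer RNA, measured 8.89, 8.95 and 8.55 on the arrays labelled transgenic and 8.49, 8.31, 8.20 and 8.33 on the wild-type arrays. The difference of 0.46 (SE 0.14, adjusted p = 0.375) came with groups that only just separated, array 05 lying next to wild type 21. Hars, the histidine enzyme, measured 8.92, 8.98 and 8.69 against 8.36, 8.60, 8.35 and 8.49, and differed by 0.42 (SE 0.12, adjusted p = 0.375). For each of Farsa, Farsb, Vars and Hars a two-sided exact permutation test, which ran through all 35 ways to pick 3 of the 7 arrays, gave p = 0.0286, the smallest p this design allows.

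Kars, Wars, Nars and Rars, for lysine, tryptophan, asparagine and arginine, also had no overlap. Their differences were smaller, at 0.29 (Kars, SE 0.11), 0.29 (Wars, SE 0.12), 0.25 (Nars, SE 0.11) and 0.24 (Rars, SE 0.10). Rars was the tightest of them on the arrays labelled transgenic, at 9.80, 9.83 and 9.72 against 9.43, 9.59, 9.53 and 9.64. Yars (0.36), Cars (0.36), Lars (0.32), Tars (0.25), Gars (0.22), Iars (0.22) and Qars (0.20) overlapped, in each case only through array 05. For Yars, the tyrosine enzyme, arrays 03 and 04 stood at 8.64 and 8.67, and array 05 at 8.19 fell among wild-type values of 8.04 to 8.22.

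Scaffold and transfer RNA genes showed a like pattern. A list of 16 measured genes for the synthetase scaffolds and for transfer RNA maturation, which includes the member Eef1e1, had 16 positive differences and a median of 0.28, with 3 (18.8%) at an unadjusted p under 0.05, against 6.77% of clusters above the 40th percentile, and 0 past the adjusted threshold. Eef1e1, a scaffold of the multi-synthetase complex despite its name, measured 8.47, 8.18 and 7.93 against 7.53, 8.08, 7.37 and 7.56. Wild type 22 overlapped the arrays labelled transgenic, and the difference of 0.56 (SE 0.20) had an adjusted p of 0.433 and an exact permutation p of 0.0857. Aimp2, another scaffold of that complex, measured 8.79, 8.94 and 8.81 against 8.28, 8.56, 8.31 and 8.49, with no overlap and a difference of 0.44 (SE 0.11, adjusted p = 0.342). Aimp1, a further scaffold, differed by only 0.12 with overlapping groups. Pus1, which makes pseudouridine in transfer RNA, differed by 0.31.

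**Figure D2:**
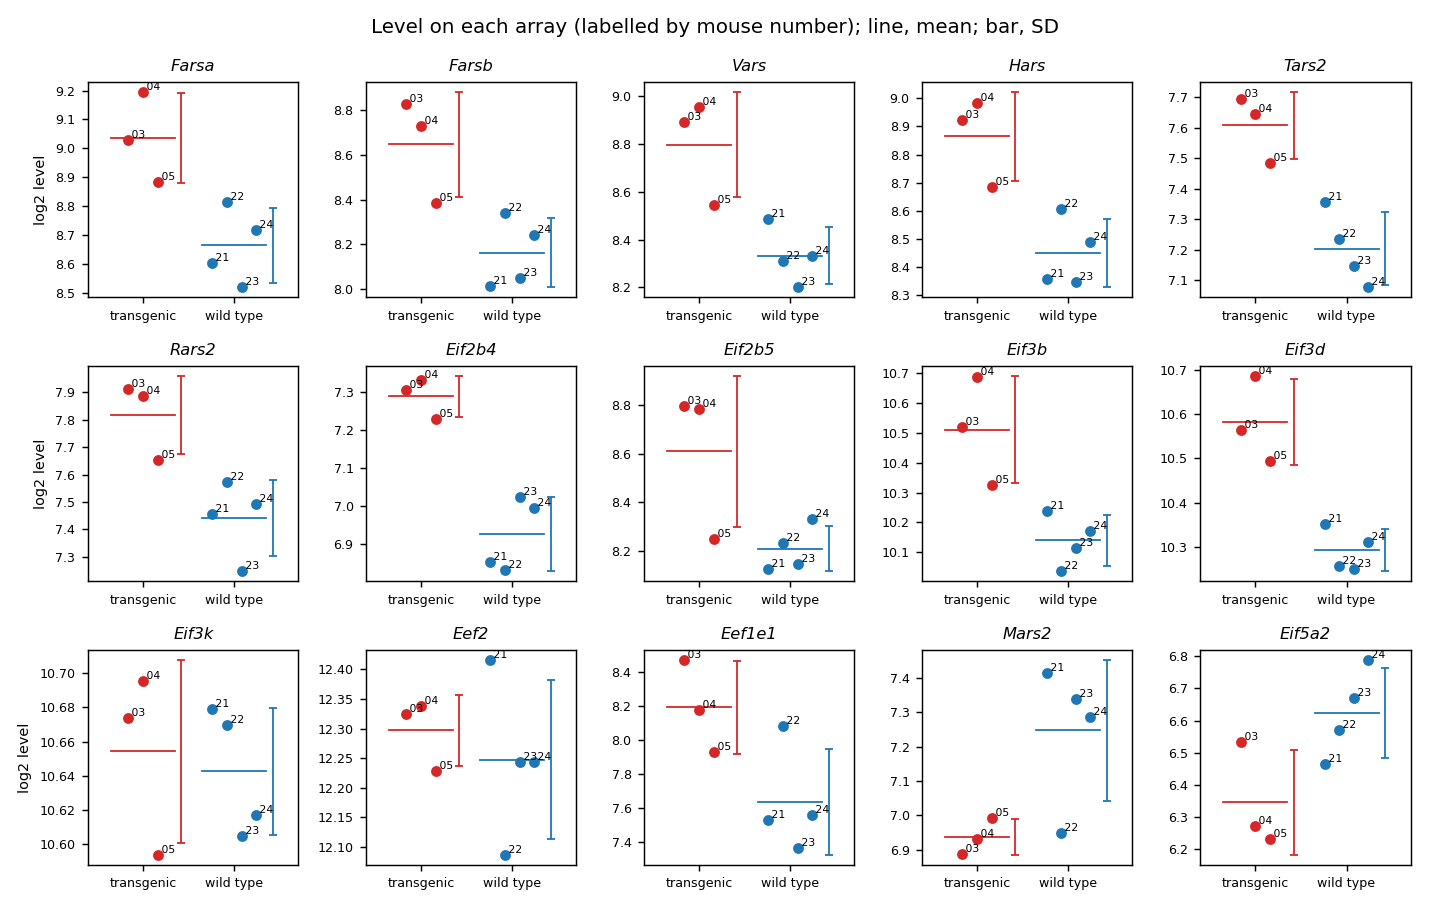
The log2 level of 15 members on each array (points, labelled by mouse number), with the mean of each group (line) and its SD (bar), n = 3 labelled transgenic and n = 4 wild type; each panel has its own vertical scale, which does not start at 0. Array 05 is the lowest of the 3 labelled transgenic in all panels but that of Mars2.

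Mitochondrial synthetases were less uniform. Of 15 measured, 13 had a positive difference, with a median of 0.16, and 3 (20%) had an unadjusted p under 0.05, against 6.77% of clusters above the 40th percentile. Tars2, the mitochondrial threonine enzyme, measured 7.69, 7.64 and 7.48 against 7.36, 7.23, 7.15 and 7.08. That separation gave a difference of 0.40 (SE 0.11, adjusted p = 0.368), larger than the SD of 0.11 (n = 3) and 0.12 (n = 4) within the groups. Rars2, for arginine, measured 7.91, 7.89 and 7.65 against 7.46, 7.57, 7.25 and 7.49, a difference of 0.38 (SE 0.12, adjusted p = 0.404). Nars2, for asparagine, measured 6.46, 6.64 and 6.35 against 6.29, 6.10, 5.90 and 6.15, a difference of 0.37 (SE 0.13, adjusted p = 0.413), and also had no overlap.

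The exceptions in mitochondria were Mars2 and Pars2. Mars2, the methionine enzyme, measured 6.89, 6.93 and 6.99 against 7.41, 6.95, 7.34 and 7.29. Wild type 22 lay among the arrays labelled transgenic, and the difference of -0.31 (SE 0.13) had an adjusted p of 0.489. It was the most negative of all 75 members. Pars2, for proline, differed by -0.05 (SE 0.17) and was 1 of the 2 members under the 40th percentile of signal. The other 10 mitochondrial enzymes, from Yars2 (0.08) to Wars2 (0.28), had intervals that included 0. Averaged over the 15 genes, arrays 03 and 04 stood at 7.11 and 7.10, above wild-type values of 6.74 to 6.89, and array 05 fell among them at 6.77.

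Other genes of mitochondrial translation were set beside them. Of 15 measured factors of that compartment, 12 had a positive difference, with a median of 0.21. An unadjusted p under 0.05 was found for 2 (13.3%), against 5.22% of all clusters and 6.77% of those above the 40th percentile. Tsfm, the exchange factor for the mitochondrial elongation factor, differed by 0.44 (SE 0.17), Taco1, a translational activator of a cytochrome oxidase subunit, by 0.41 (SE 0.16), and Gfm2, which acts in ribosome recycling, by 0.31 (SE 0.16). Their adjusted p-values in limma were 0.447, 0.442 and 0.539. The 3 negative differences were those of Tufm, the mitochondrial elongation factor that Tsfm serves (-0.94, SE 0.55), Guf1 (-0.18) and Mtif3 (-0.07). Tufm had the largest difference of the list in either direction, but its cluster lay under the 40th percentile of signal and its groups overlapped, at 5.05, 3.91 and 3.08 against 4.29, 4.47, 5.00 and 6.03.

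The promoters of a few synthetases are shown because all cytosolic synthetases had a positive difference, and these 4, picked after the matches were seen, hold the motifs searched. They come from RefSeq (GRCm38.p6) and run from 250 bases before to 50 bases after the annotated start. The motifs were CACGTG, the E-box that Myc and its relatives can bind, TGATGNAA, the core of the element read by ATF4, and CCGGAAG, a site of the ETS family, each searched on both strands. Capitals mark the matches found. In Farsa (chr8:84856736-84857035, plus strand) the match is CTTCCGG, the ETS motif on the other strand. In Farsb (chr1:78488848-78489147, minus strand) it is CACGTG. In Iars (chr13:49681880-49682179, plus strand) the matches are CACGTG and TTGCATCA, the reverse of the ATF4 core, and in Gars (chr6:55037751-55038050, plus strand) they are CTTCCGG and TTTCATCA.
Farsa: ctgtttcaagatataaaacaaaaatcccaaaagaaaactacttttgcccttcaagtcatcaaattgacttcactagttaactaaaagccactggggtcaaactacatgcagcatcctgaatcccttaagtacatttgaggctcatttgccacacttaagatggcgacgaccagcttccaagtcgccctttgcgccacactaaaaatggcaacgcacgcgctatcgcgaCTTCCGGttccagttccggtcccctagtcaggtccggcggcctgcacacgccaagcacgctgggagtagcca
Farsb: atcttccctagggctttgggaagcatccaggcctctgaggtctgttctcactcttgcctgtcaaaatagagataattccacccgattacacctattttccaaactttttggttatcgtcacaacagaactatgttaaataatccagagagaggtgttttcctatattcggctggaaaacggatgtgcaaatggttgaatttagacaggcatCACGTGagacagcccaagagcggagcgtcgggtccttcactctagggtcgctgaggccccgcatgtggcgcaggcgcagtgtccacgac
Iars: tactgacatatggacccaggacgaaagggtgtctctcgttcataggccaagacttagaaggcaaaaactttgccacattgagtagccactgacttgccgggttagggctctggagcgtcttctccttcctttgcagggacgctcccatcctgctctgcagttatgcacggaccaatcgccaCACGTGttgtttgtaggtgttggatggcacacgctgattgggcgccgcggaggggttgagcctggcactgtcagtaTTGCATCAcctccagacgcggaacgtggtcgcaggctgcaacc
Gars: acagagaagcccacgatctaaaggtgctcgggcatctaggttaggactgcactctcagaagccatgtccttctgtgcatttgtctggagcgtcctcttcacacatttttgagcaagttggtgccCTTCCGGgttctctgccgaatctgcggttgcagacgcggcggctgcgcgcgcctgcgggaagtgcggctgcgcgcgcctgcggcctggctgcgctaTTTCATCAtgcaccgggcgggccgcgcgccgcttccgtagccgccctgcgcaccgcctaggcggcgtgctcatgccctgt

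Motif counts described the whole family. The RefSeq table held 69 promoters for 58 of the 75 members. CACGTG occurred in 14 of them (20.3%), against 7.15% of all 32851 promoters of the same length. The ETS motif occurred in 21 (30.4%, against 8.86%) and the ATF4 core in 5 (7.25%, against 3.97%). Base composition differs between these sets, with a median GC content of 60.3% in the members and 52.7% in all promoters. Among promoters with at least 60% GC the shares were 21.1% against 10.8% for CACGTG and 42.1% against 16.6% for the ETS motif. For the ATF4 core they were 5.26%, in 2 of 38 promoters, against 1.10%. Among members higher at an unadjusted p under 0.05, 1 of 12 promoters, that of Farsb, held CACGTG, against 13 of 57 in the other members, while the ETS motif stood in 5 of 12 against 16 of 57. Neither split was tested. The ATF4 core stood in 4 of 22 synthetase promoters, those of Gars, Iars, Tars and Yars, all grouped here with the cytosolic enzymes. Several other cytosolic enzymes, such as Vars and Hars, had no promoter in the RefSeq table. Among these 4 genes the groups overlapped in each, and only Yars had an unadjusted p under 0.05 in limma.

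Among the initiation factors the eIF2B subunits stood highest. All 4 measured subunits had a positive difference, with a median of 0.33, where 50% of clusters above the 40th percentile had a positive difference. The groups did not overlap in 1 of the 4, against 6.46% of those clusters with the arrays labelled transgenic higher. Eif2b4, the delta subunit, had the lowest p of all members and measured 7.31, 7.33 and 7.23 against 6.85, 6.83, 7.03 and 6.99. Here array 05 stayed with the other arrays labelled transgenic, and the difference was 0.36 (SE 0.10, adjusted p = 0.365, exact permutation p = 0.0286). Eif2b5, the catalytic epsilon subunit, measured 8.79, 8.78 and 8.25 against 8.13, 8.24, 8.15 and 8.33, so that array 05 lay within the wild-type range, and differed by 0.40 (SE 0.16, adjusted p = 0.453). Eif2b1 and Eif2b2, the alpha and beta subunits, differed by 0.29 (SE 0.15) and 0.23 (SE 0.18), also with overlap at array 05.

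Factors that find the start codon and carry the initiator transfer RNA showed no common direction. Of 8 measured, 4 were higher and 4 lower, with a median of 0.03. None had an unadjusted p under 0.05, against 6.77% higher and 6.08% lower among clusters above the 40th percentile. Eif2s2, the beta subunit of eIF2, measured 9.22, 8.80 and 8.65 against 9.07, 9.32, 8.72 and 9.26, a difference of -0.20 (SE 0.20, adjusted p = 0.761). Eif5, which triggers GTP hydrolysis on eIF2, measured 10.72, 10.58 and 10.35 against 10.58, 10.67, 10.75 and 10.80, a difference of -0.15 (SE 0.12, adjusted p = 0.720). In both genes the groups overlapped widely. Eif2a, an initiator transfer RNA binding protein distinct from eIF2, differed by -0.10 (SE 0.12), Eif5b, which joins the subunits, by 0.06, and Eif1a by -0.01. The most positive was Eif1ad at 0.24 (SE 0.15), with overlap through wild type 24. It stands here by its symbol, which does not establish a role in finding the start codon.

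Subunits of eIF3 divided into a pair that separated the groups and a remainder that did not. The pair made up 2 of 10 subunits, where 6.46% of clusters above the 40th percentile had no overlap with the arrays labelled transgenic higher. Eif3b, a core scaffold subunit, measured 10.52, 10.69 and 10.33 against 10.24, 10.04, 10.11 and 10.17, a difference of 0.37 (SE 0.12, adjusted p = 0.40). Eif3d, which can itself bind the cap, measured 10.56, 10.69 and 10.49 against 10.35, 10.26, 10.25 and 10.31, a difference of 0.29 (SE 0.10, adjusted p = 0.412). Neither gene had overlap, and both had an exact permutation p of 0.0286. The other 8 subunits differed by -0.06 (Eif3f) to 0.16 (Eif3c). Their measurements bound the difference to unequal degrees. For Eif3k, at 10.67, 10.70 and 10.59 against 10.68, 10.67, 10.61 and 10.62, the 95% interval ran from -0.20 to 0.23. That of Eif3i ran from -0.21 to 0.27. Wider limits held for Eif3e (-0.47 to 0.41), Eif3c (-0.09 to 0.41) and Eif3l (-0.19 to 0.39). A difference as large as that of Eif3b lies within the intervals of Eif3e, Eif3c and Eif3l. Subunits of this complex thus differed by unequal amounts on the same arrays, although the difference between subunits was not tested.

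Cap-binding and helicase factors included no gene at an unadjusted p under 0.05. Among clusters above the 40th percentile 6.77% were higher and 6.08% lower at that level. Without the doubtful Eif4b cluster, 4 of 7 had a positive difference, with a median of 0.15 (5 of 8 and 0.13 with it). Eif4e, the cap-binding protein, measured 8.95, 8.77 and 8.17 against 8.18, 8.49, 8.22 and 8.51, so that arrays 03 and 04 lay above and array 05 below all wild-type arrays. Its difference was 0.28 (SE 0.20, adjusted p = 0.675, 95% interval -0.19 to 0.75). Eif4g3, a scaffold of the cap complex, separated the groups at 9.15, 9.25 and 9.14 against 9.01, 9.02, 8.99 and 9.10, with a difference of 0.15 (SE 0.09, adjusted p = 0.615). Eif4h, a helicase helper, differed by 0.21, Eif4e3 by 0.30 and Eif4e2 by -0.05. Eif4g2, a relative of the scaffold that does not bind Eif4e, differed by -0.12 (SE 0.11, adjusted p = 0.754), and Eif4a3, the helicase of the exon junction complex, by -0.07 (SE 0.15).

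Members that restrain translation showed no common direction. Of the 5 measured, 2 had a positive and 3 a negative difference. None had an unadjusted p under 0.05, against 6.77% higher and 6.08% lower among clusters above the 40th percentile. Eif2ak3 and Eif2ak4, the eIF2 kinases PERK and GCN2, differed by 0.26 (SE 0.16, adjusted p = 0.614) and -0.07 (SE 0.22, adjusted p = 0.942). Eif2ak4 measured 7.54 and 7.45 on arrays 03 and 04 and 6.69 on array 05, which lay below all wild-type values (7.10 to 7.49). Eif4ebp2, which sequesters Eif4e, measured 9.72, 9.80 and 9.56 against 9.67, 9.78, 9.63 and 9.86, a difference of -0.04 (SE 0.11). Eef2k, the kinase that inhibits Eef2, differed by -0.06 (SE 0.14), and Eif4enif1, which carries Eif4e into the nucleus, by 0.12 (SE 0.13). Eif5a2, a variant of the hypusine-bearing factor eIF5A, measured 6.53, 6.27 and 6.23 against 6.46, 6.57, 6.67 and 6.79. It overlapped through array 03 and differed by -0.28 (SE 0.13, adjusted p = 0.509), the second most negative member.

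Elongation factors proper showed small differences. Eef2, which moves the ribosome, measured 12.32, 12.34 and 12.23 against 12.42, 12.09, 12.24 and 12.24. The groups overlapped fully, with a difference of 0.05 and a 95% interval of -0.21 to 0.31. Eef1b2, an exchange factor for eEF1A, differed by -0.08 (SE 0.10, adjusted p = 0.826) and Eef1a2 by -0.04 (SE 0.11). Eef1d, another exchange subunit, measured 7.99, 8.21 and 7.99 against 7.87, 7.91, 7.92 and 7.92, without overlap and with a difference of 0.16 (SE 0.10, adjusted p = 0.626). Of the 4 methyltransferases of elongation factors, Eef1akmt1 had the largest difference of all members, 0.62 (SE 0.25, adjusted p = 0.458). It measured 7.45, 7.47 and 7.15 against 6.45, 6.75, 6.37 and 7.39, and wild type 24 lay among the arrays labelled transgenic. Eef2kmt differed by 0.0001 (SE 0.16), Eef1akmt2 by 0.07 and Eef1aknmt by 0.23.

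**Figure D3:**
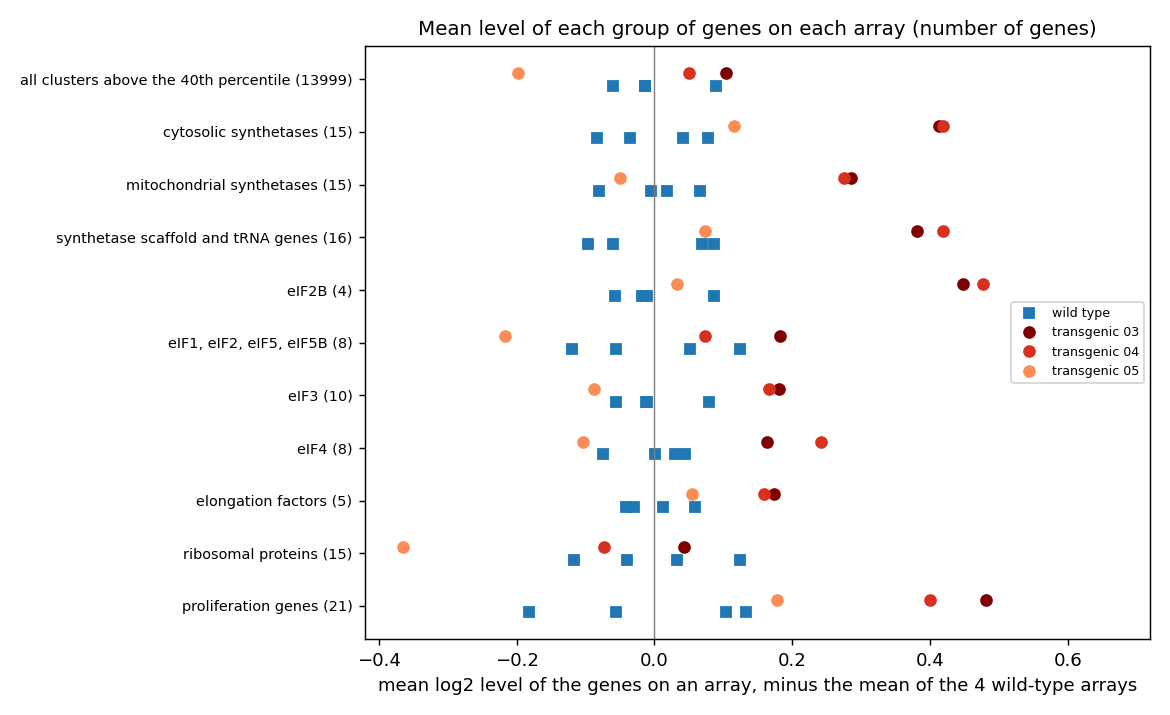
The mean log2 level of each group of genes on an array, minus the mean of the 4 wild-type arrays, for the 4 wild-type arrays (squares) and the 3 arrays labelled transgenic (circles); the number of genes is in parentheses. The 15 cytosolic synthetases (9.08, 9.09 and 8.78 against 8.58 to 8.74) lie above every wild-type array on all 3. The mean of all clusters above the 40th percentile is lowest on array 05 (7.35) and highest on array 03 (7.65). The elongation factors include Eef1e1, a synthetase scaffold.

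Other parts of the translation machinery were set beside the members. Genes of termination, recycling and mRNA binding had 7 positive and 8 negative differences of 15, with a median of -0.03. In that list 1 gene (6.67%) had an unadjusted p under 0.05, near the 6.77% of clusters above the 40th percentile that were higher. It was Abcf1, an ATPase that assists initiation, at 9.58, 9.69 and 9.62 against 9.33, 9.36, 9.22 and 9.25. Its difference was 0.34 (SE 0.10, adjusted p = 0.362). Abce1, which splits ribosomes, differed by 0.20 and Dap by -0.31. Cytosolic ribosomal protein genes, of which 15 of 53 listed had a cluster of their own, had 3 positive and 12 negative differences. Their median was -0.10. None had an unadjusted p under 0.05, against 6.77% higher and 6.08% lower among clusters above the 40th percentile. Rps27l (-0.67, SE 0.36), Rps18 (-0.40, SE 0.21) and Rps24 (0.59, SE 0.32) had the lowest p-values, with adjusted p from 0.564 to 0.571. Many genes of this class have near-identical copies, so these values are uncertain.

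Genes of mTORC1 signalling and eIF4F control showed small differences in level, while those of the ATF4 response ran from -0.37 to 0.70. Of these 16 genes of mTORC1 signalling and eIF4F control, 10 were higher and 6 lower, with a median of 0.06. None had an unadjusted p under 0.05, against 6.77% higher and 6.08% lower among clusters above the 40th percentile. Mtor itself measured 7.85, 7.75 and 7.55 against 7.47, 7.45, 7.61 and 7.77, and differed by 0.14 (SE 0.13). Deptor, Rragd and Rhebl1 differed by 0.26, -0.28 and -0.21. Atf4, the transcription factor translated when eIF2 is restrained and a regulator of several synthetase genes, measured 11.63, 11.52 and 11.35 against 11.79, 11.75, 11.66 and 11.68. All arrays labelled transgenic lay below the wild-type arrays, and the difference was -0.22 (SE 0.11, adjusted p = 0.534). Of 20 genes of the ATF4 response, 14 had a positive difference and the median was 0.11, with 2 higher (10%) and 1 lower at an unadjusted p under 0.05. Over all clusters those shares were 5.22% and 5.05%, and among clusters above the 40th percentile 6.77% and 6.08%. Mthfd2, a mitochondrial folate enzyme, differed by 0.42 (SE 0.12), Vldlr by 0.70 (SE 0.21) and Cebpb by -0.37 (SE 0.14). Beyond these genes, Ppp1r15a (0.57, SE 0.30) and Nupr1 (0.47, SE 0.21) had the most positive differences of that list, with overlapping groups. Chac1 (-0.24) and Slc7a11 (-0.23) had the most negative, also with overlap, and Slc7a11 had a low signal. Asns and Trib3 differed by 0.07 and 0.02.

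Growth genes differed along the same division of arrays. Myc, a transcription factor that promotes growth, measured 10.52, 10.42 and 10.18 against 9.60, 9.50, 9.01 and 9.13, and differed by 1.06 (SE 0.18, adjusted p = 0.279). Of 21 proliferation genes, 21 had a positive difference, with a median of 0.33, and 10 (47.6%) had an unadjusted p under 0.05, against 6.77% of clusters above the 40th percentile. Ube2c (0.52), Mcm7 (0.62) and Mcm5 (0.56), which serve mitosis and DNA replication, led that list. Averaged over the list, arrays 03, 04 and 05 stood at 9.13, 9.05 and 8.83 against wild-type values of 8.47 to 8.78, so that these group means did not overlap either. The part of cell growth in the levels of the synthetases was not tested.

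**Figure D4:**
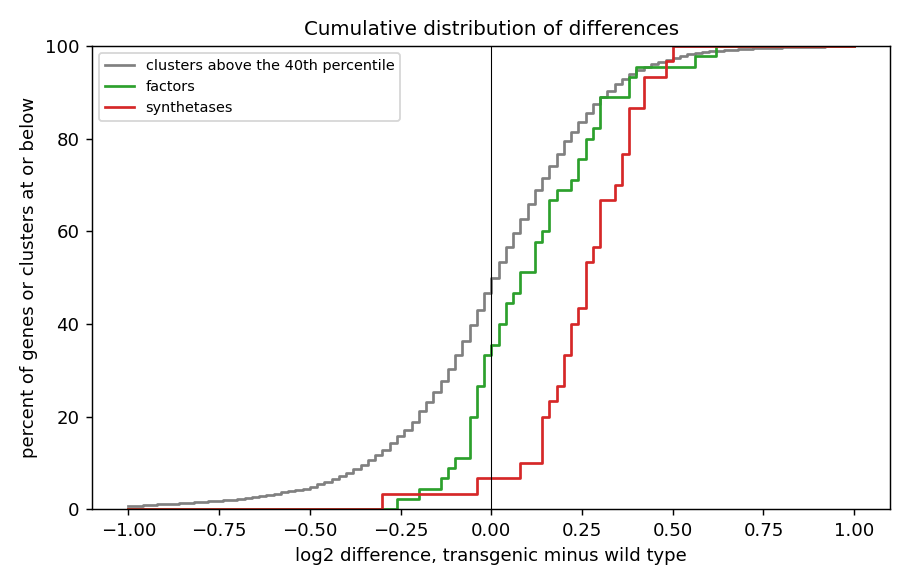
The percent of the 30 synthetases, the 45 factors and the 13999 clusters above the 40th percentile (vertical axis) with a log2 difference at or below the value on the horizontal axis. The synthetases lie to the right with a median of 0.25, the factors lie between with 0.07, and the clusters cross 50% near 0. The factors were grouped by symbol and include the scaffold Eef1e1 and the doubtful Eif4b cluster.

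Set side by side, the synthetases and the factors differed in their counts. Of 30 synthetases, 28 had a positive difference, 12 (40%) had an unadjusted p under 0.05 and 11 (36.7%) had no overlap. Of 45 factors, 29 had a positive difference, 6 (13.3%) had an unadjusted p under 0.05 and 5 (11.1%) had no overlap. The factors were grouped by symbol, so the 6 include the synthetase scaffold Eef1e1 and the methyltransferase Eef1akmt1. Without the doubtful Eif4b cluster, 28 of 44 factors had a positive difference, with a median of 0.06. Among clusters above the 40th percentile those shares were 6.77% and 6.46%, and among all clusters 5.22% and 5.17%. Over the 15 other settings of the analysis the synthetases kept 27 to 29 positive differences and a median of 0.19 to 0.37, and the factors 23 to 38 and 0.0017 to 0.19. Members share arrays and are not replicates, so these counts describe the lists and carry no test of the difference between them.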

How the data were processed

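RNA of each of 7 mice was amplified and hybridised to 1 array, per the labels. The deposited values are log2 levels from RMA (named in the submitters' processing notes beside mm9), with the scale read from the values and the settings not stated. The deposited arrays are not on 1 common level, with medians from 5.98 (array 05) to 6.21 (wild type 24), and no scaling was added in the reported fit. The number of arrays limits the precision. The limma p-values set the difference between the groups against the spread between mice within them, moderated over all clusters.

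Symbols came from the platform annotation. All 23332 clusters were fitted with limma 3.58.1 (lmFit, eBayes) in R 4.3.3 with genotype as the only term, two-sided, with Benjamini-Hochberg adjustment over all clusters, and the fit was tested on simulated data. Exact permutation tests used all 35 assignments. Members, lists and tests were chosen with earlier results of these data known. Any member could be named. Full statistics were set for the 10 members per direction with the lowest p and for Eif4ebp1, Eif4ebp2, Eif4e, Eif2s1, Eif2ak3, Eif2ak4, Eef2, Eef2k, Eif5a and Eprs, of which Eif4ebp1, Eif2s1, Eif5a and Eprs had no cluster of their own. Up to 3 genes per other list were named by lowest p, with Atf4, Mtor, Traf6 and Myc; Other named genes were added after their values were seen. Alternatives covered the signal filter, scaling, array weights, the variance prior, the threshold, 1 cluster per gene, no moderation, and leaving out each array. Each member had 1 cluster, so averaging clusters was not run. Promoter sequences are from RefSeq (GRCm38.p6). Figures used matplotlib 3.10.9 in Python 3.11.15.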

Additional observations from a re-analysis of the deposited data

Results flagged for a closer look

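In 3 of 75 members 1 wild-type array stood apart from the other wild-type arrays, with a gap above Dixon's 95% critical value for 4 samples. Chance flags about 1 in 20 such groups, and groups of 3 were not tested. Eif4enif1 measured 8.63 on wild type 24 and 8.39 to 8.40 on the other wild-type arrays. Vars2, the mitochondrial valine enzyme, measured 7.03 on wild type 21 against 6.81 to 6.83 on the others. Eef1a2 measured 6.55 on wild type 24 against 6.76 to 6.79.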

How the results depend on the processing

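No paired analysis was possible because the groups share no replicate numbers. No member passed an adjusted p of 0.05 under any setting run, or 0.1 in the fit as reported; the lowest adjusted p of a member ran from 0.0894 (array weights) to 0.652 (without wild type 23) over the settings. The count of members higher at an unadjusted p under 0.05, 18 as reported, became 28 with median centring and 42 with array weights, and 5 to 39 on leaving out 1 array. The share of all clusters higher rose in the same fits, from 5.22% to 9.25% with median centring and 13.1% with array weights. The count lower, 0 as reported, became 1 with quantile normalization, 2 with array weights, 2 with 1 cluster per gene, 1 with centring on clusters above the 40th percentile (chosen after seeing the data), and 0 to 1 on leaving out 1 array. The median difference kept its sign, at 0.114 to 0.304 on leaving out 1 array. Of 25 members followed singly, those near 0 changed sign under 14 of 375 combinations of member and setting: with array weights Eif4a3 (0.0069), Eif3f (0.0567), Eef2k (0.0769), Eif2ak4 (0.1037) and Eif4ebp2 (0.0355), and with median centring Eif3f (0.0014) and Eif4ebp2 (0.0193). On leaving out 1 array they ranged from -0.1477 to 0.0756 (Eif4a3), -0.1249 to 0.0768 (Eif3f), -0.1352 to 0.0798 (Eef2k), -0.0042 to 0.1058 (Eef2), -0.2232 to 0.1996 (Eif2ak4) and -0.0923 to 0.0274 (Eif4ebp2). The cause was not tested.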
